A study of Mus musculus with 6 samples.

Results

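Secreted antagonists of bone morphogenetic proteins (BMPs) and of activins were examined in cultured bone marrow stromal cells (BMSCs) of aged and young mice. The set held 9 genes taken by symbol from the platform annotation: Fst, Fstl1, Fstl3, Grem1, Nog, Chrd, Chrdl1, Inhba and Bambi. Each had a single probe set that names no other gene, out of 30702 genes with such a probe set, and all 9 were among the 20187 genes that passed the filter on low values. Inhba encodes a subunit of the activin ligand and Bambi a membrane protein, so these members of the set are not secreted antagonists by themselves.

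The aged cells came from mice of 18 months and the young cells from mice of 3 months, with 3 arrays for each age. At both ages the cells were released from crushed femurs with collagenase and sorted as positive for Sca-1 and CD29 and negative for CD45 and CD11b. They were expanded in culture beyond the first passage before RNA was taken, so the values describe cultured cells and not cells in the marrow. The labels speak of biological replicates but name no strain, sex or animal per array, so the p-values measure only the spread between these arrays. In such bulk samples fewer cells of a type and less RNA per cell cannot be told apart.

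BMPs and activins are secreted dimers of the TGF-beta family that bind pairs of kinase receptors, which phosphorylate SMAD transcription factors. In marrow stroma BMPs are known to drive bone and cartilage formation, while activins act through SMAD2 and SMAD3. Antagonists work outside the cell by binding the ligand: follistatins bind activins tightly, and noggin, gremlin and the chordins bind BMPs.

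The deposited values are on a log2 scale, and array medians over all transcript clusters lay between 5.39 and 5.44. The lowest Pearson's r across genes was 0.996 within an age and 0.989 between ages (genes are not independent replicates). A level of 7.61, below which 95% of 5222 negative control probe sets lay, was taken as the top of the negative control range. Probes that match no mouse sequence, the antigenomic classes, read higher in aged arrays in all 23 classes, by up to 0.29 on the log2 scale. Their 7 classes richest in G and C lay above 7.61 at both ages, up to 9.11 in aged and 8.87 in young arrays, so GC-rich probes without a target can read as high as Fst in aged cells or Inhba at either age. The median of the aged minus young differences of the negative controls was -0.26. Single negative controls ran from -2.36 to 1.86, and 1424 of the 5222 were above 0. The upper end of that range exceeds the difference of each of the 9 genes. Of the sorting markers, Itgb1 (CD29) was bright at 11.76 ± 0.01 in aged and 11.86 ± 0.04 in young cells (SD, n = 3 each), Ptprc (CD45) and Itgam (CD11b) fell below the filter on low values, and Ly6a (Sca-1) was not analysed here. Of 10 blood cell markers 4 were below that filter and 5 were tested, of which 1 rose, Ly6g, with both means within the negative control range. The summed linear signal of these blood cell markers was 403 to 413 in aged and 367 to 374 in young arrays, and their part in the results was not tested. No source used here states how cultures and hybridisations were batched, and a batch that followed age cannot be told apart from age.

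Of the 9 genes, 5 were higher in aged cells: Fst, Fstl1, Grem1, Chrdl1 and Inhba (limma, Benjamini-Hochberg adjusted p under 0.05). Over all genes tested 40.6% passed, 18.4% being higher and 22.1% lower in aged cells. No member was called lower by limma, while 1, Nog, had an unadjusted p under 0.05 in that direction. The differences of the 9 ran from -0.14 to 1.59 on the log2 scale with a median of 0.16, beside a median of 0.01 over all genes tested. The ages did not overlap in 6 of the 9 genes, and this was so for 51.3% of all genes tested. Against a minimum difference of 0.3 on the log2 scale, 4 members passed, all higher, where 9.83% of all genes tested passed in either direction and 5.79% as higher.

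**Figure D1:**
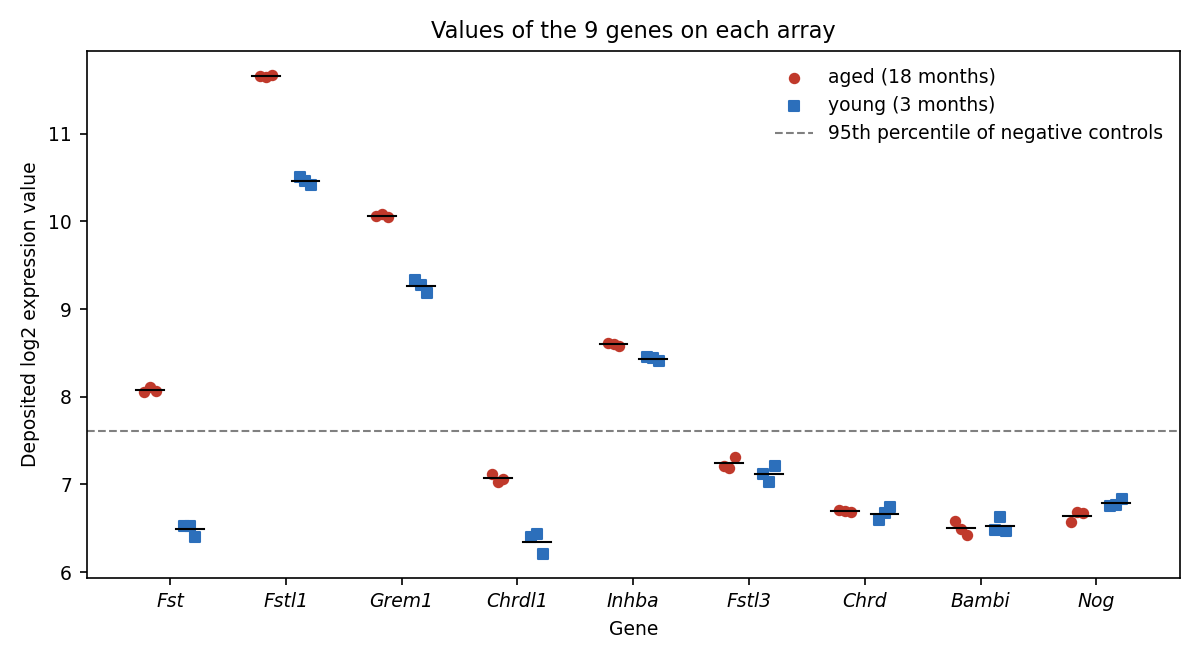
Deposited log2 value of each of the 9 genes on each array, aged (circles, left of each pair) and young (squares, right), with black bars at the means of 3 arrays. The dashed line at 7.61 is the 95th percentile of the negative controls; Fstl1, Grem1 and Inhba lay above it at both ages, Fst only in aged cells, and the other 5 genes lay below it at both ages.

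Among the activin-binding proteins, Fst moved most. Fst encodes follistatin, which wraps around activin and keeps it from its receptors. Its log2 value was 8.05, 8.11 and 8.07 on the aged arrays, against 6.52, 6.53 and 6.41 on the young arrays. Every aged array was thus well above every young one, and only the aged values rose above the negative control range. The difference was 1.59 ± 0.05 (SE) on the log2 scale (limma, adjusted p = 5.15e-08), and no fold is given because the young level is within that range. Only 186 of the 20187 genes tested, or 0.921%, had a larger rise.

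Fstl3 encodes a follistatin-like protein that also binds activin. It read 7.21, 7.19 and 7.32 on aged arrays and 7.12, 7.03 and 7.21 on young arrays, all within the negative control range and with overlapping ages. Its difference was 0.12 with a 95% confidence interval from -0.02 to 0.26 and did not pass (limma, adjusted p = 0.177). Without young replicate 3 the difference was 0.16 and passed narrowly (limma, adjusted p = 0.0475).

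Inhba encodes the beta A subunit, of which activin A is a dimer, and so stands for the ligand that follistatin binds. It read 8.62, 8.60 and 8.58 on aged arrays, against 8.45, 8.45 and 8.41 on young arrays. The ages did not overlap, but the step between them was small. The difference was 0.16 ± 0.03 (SE) on the log2 scale, or 1.12-fold with a 95% confidence interval from 1.06 to 1.18 (limma, adjusted p = 0.00438). That is less than the largest upward shift of the antigenomic background, 0.29, and against a minimum of 0.3 it did not pass.

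Fstl1 encodes a secreted glycoprotein with a follistatin-like domain that mesenchymal cells make in quantity, and that has been reported to restrain BMP signalling in the mouse lung. It read 11.66, 11.65 and 11.67 on aged arrays, against 10.50, 10.46 and 10.41 on young arrays. All values were far above the negative controls, and the gap between ages was many times the spread within them. The rise was 1.20 ± 0.03 (SE) on the log2 scale, or 2.30-fold with a 95% confidence interval from 2.19 to 2.41 (limma, adjusted p = 1.38e-08). Of the 9440 genes above the negative control range at both ages, 133 had a larger rise.

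Among the BMP-binding proteins, Grem1 and Chrdl1 rose while Nog and Chrd did not pass. Grem1 encodes gremlin 1, which binds BMP2 and BMP4 and whose expression marks a skeletal stem cell population in mouse bone. It read 10.06, 10.08 and 10.05 on aged arrays, against 9.33, 9.28 and 9.18 on young arrays. The lowest aged array exceeded the highest young array. The rise was 0.80 ± 0.04 (SE) on the log2 scale, or 1.74-fold with a 95% confidence interval from 1.63 to 1.86 (limma, adjusted p = 9.98e-07), and 273 of the 9440 genes above the negative control range at both ages rose more.

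Chrdl1 encodes chordin-like 1, a BMP-binding protein related to chordin. It read 7.12, 7.03 and 7.07 on aged arrays, against 6.40, 6.43 and 6.21 on young arrays. The ages did not overlap, yet all 6 values were within the negative control range, so the size of the true change is not settled. The measured difference was 0.73 ± 0.07 (SE) on the log2 scale (limma, adjusted p = 3.82e-05).

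Nog encodes noggin, which covers the receptor-binding surfaces of BMPs. It read 6.57, 6.69 and 6.68 on aged arrays, against 6.76, 6.76 and 6.83 on young arrays. Each aged array was lower than each young array, within the negative control range. The difference of -0.14 had a 95% confidence interval from -0.26 to -0.02 and did not pass (limma, adjusted p = 0.0683). After quantile normalization it was -0.19 and passed (limma, adjusted p = 0.0128).

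Chrd encodes chordin, the founding member of the chordin family. It read 6.71, 6.69 and 6.69 on aged arrays and 6.59, 6.67 and 6.74 on young arrays, with overlapping ages. Its difference of 0.03 had an interval from -0.09 to 0.15 (limma, adjusted p = 0.71). Bambi encodes a receptor-like membrane protein without a kinase domain that dampens BMP and TGF-beta signalling. It read 6.59, 6.49 and 6.42 on aged arrays and 6.48, 6.63 and 6.46 on young arrays. The ages overlapped here too, and the difference of -0.03 had an interval from -0.18 to 0.13 (limma, adjusted p = 0.79). Chrd and Bambi were within the negative control range throughout, so a change of their true level cannot be read from these values.

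**Figure D2:**
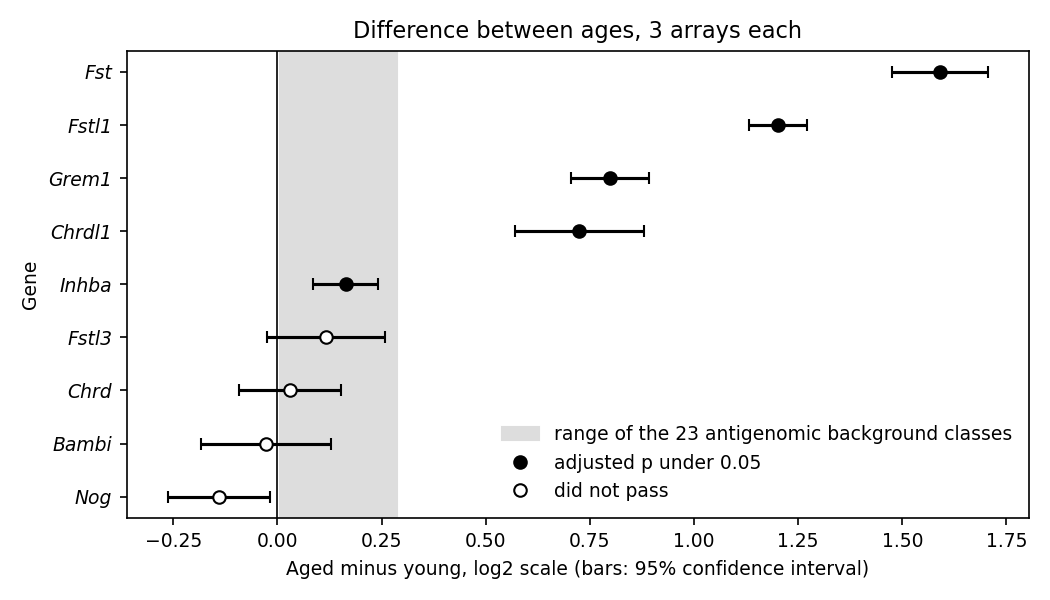
Aged minus young difference of each of the 9 genes on the log2 scale with its 95% confidence interval (limma, 3 arrays per age); filled points passed at an adjusted p under 0.05. The grey band spans the shifts of the 23 antigenomic background classes, from 0.01 to 0.29: Fst, Fstl1, Grem1 and Chrdl1 lie to its right, and the point of Inhba lies inside it.

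Of the 9 genes, 5 had a promoter window in the RefSeq table of build GRCm38.p6, which covers 250 bases before and 50 bases after a transcript start. Those of Fstl1 and Grem1, members that rose also against the minimum of 0.3, are printed beside that of Fstl3, which did not pass. The windows are chr16:37776805-37777104 on the plus strand for Fstl1, chr2:113758599-113758898 on the minus strand for Grem1 and chr10:79777024-79777323 on the plus strand for Fstl3. Each is given 5′ to 3′ along the gene, and capitals mark motif matches on either strand.
Fstl1 promoter: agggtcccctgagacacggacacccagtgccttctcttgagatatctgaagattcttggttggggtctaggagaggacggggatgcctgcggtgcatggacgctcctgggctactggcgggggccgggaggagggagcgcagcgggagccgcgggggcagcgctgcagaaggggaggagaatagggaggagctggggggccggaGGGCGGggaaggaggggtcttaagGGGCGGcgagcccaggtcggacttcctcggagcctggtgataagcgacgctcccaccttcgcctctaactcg
Grem1 promoter: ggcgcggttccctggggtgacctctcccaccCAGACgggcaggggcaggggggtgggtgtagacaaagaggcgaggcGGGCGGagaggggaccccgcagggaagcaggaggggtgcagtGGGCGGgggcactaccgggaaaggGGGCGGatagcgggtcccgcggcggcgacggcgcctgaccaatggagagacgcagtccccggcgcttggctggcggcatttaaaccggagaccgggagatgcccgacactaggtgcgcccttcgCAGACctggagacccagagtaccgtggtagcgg
Fstl3 promoter: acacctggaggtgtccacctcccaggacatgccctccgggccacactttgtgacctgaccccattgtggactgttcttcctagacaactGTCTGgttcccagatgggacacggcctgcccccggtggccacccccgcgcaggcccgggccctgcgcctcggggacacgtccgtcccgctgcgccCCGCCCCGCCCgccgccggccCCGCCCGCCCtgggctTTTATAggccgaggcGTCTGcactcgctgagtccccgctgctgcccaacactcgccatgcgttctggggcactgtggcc
The motifs searched were the SMAD box CAGAC, the AP-1 site TGANTCA, the GC box GGGCGG and the TATA box TATAAA, and adjoining or overlapping matches run together in capitals. Over all 32851 windows of this length 49.6% held a SMAD box, 7.81% an AP-1 site, 35.7% a GC box and 13.6% a TATA box. The Fstl1 window held 2 GC boxes and none of the other letters, and the Grem1 window held 3 GC boxes and 2 SMAD boxes. The Fstl3 window held 4 GC boxes, 2 SMAD boxes and 1 TATA box. SMAD box letters were thus present in 1 of these 2 members that rose and in Fstl3, and these matches describe the letters only. All 3 printed windows were rich in G and C, at 66.7% for Fstl1 and 70.7% for both Grem1 and Fstl3, beside a median of 52.7% over all windows. The window of Inhba, which also rose, is not printed and held 1 TATA box and none of the other letters, at 47.7% G and C. That of Chrd, which did not pass, is not printed either and held 4 GC boxes and 1 SMAD box, at 78.3%.

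Unequal changes of antagonist and ligand were compared within arrays, where a shift common to a whole array cancels. For each of 6 pairs the log2 value of one gene was subtracted from that of the other, and only the change of this quantity between ages carries meaning, since probe sets differ in brightness. With 3 arrays against 3 the exact permutation test (two-sided) cannot give a p under 0.1, or 0.12 after adjustment over these pairs. Fst minus Inhba was -0.57, -0.48 and -0.51 on aged arrays, against -1.93, -1.92 and -2.00 on young arrays. The measured change was 1.43 on the log2 scale, with no overlap between ages (exact permutation p = 0.1). Fst minus Fstl3 changed by 1.47, again without overlap, whereas Fstl3 minus Inhba changed by -0.05 and the ages overlapped (exact permutation p = 0.7). Fst in young cells and Fstl3 at both ages were within the negative control range, so the size of the true changes is not settled for these pairs.

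For the BMP arm the pairs gave changes of unlike direction. Grem1 minus Bmp4 was 0.31, 0.31 and 0.27 on aged arrays, against 0.44, 0.46 and 0.44 on young arrays. The change of -0.15 on the log2 scale, at the smallest p the test allows (exact permutation p = 0.1), is smaller than the spread of antigenomic shifts between probe classes, which ran from 0.01 to 0.29. Nog minus Bmp4 was -3.17, -3.08 and -3.10 on aged arrays, against -2.13, -2.06 and -1.91 on young arrays. The ages did not overlap, and the difference was -1.09 (exact permutation p = 0.1), with Nog within the negative control range. Grem1 minus Bmp2 changed by 0.80, with Bmp2 itself within that range at 6.37 ± 0.08 in aged and 6.38 ± 0.04 in young cells (SD, n = 3 each).

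**Figure D3:**
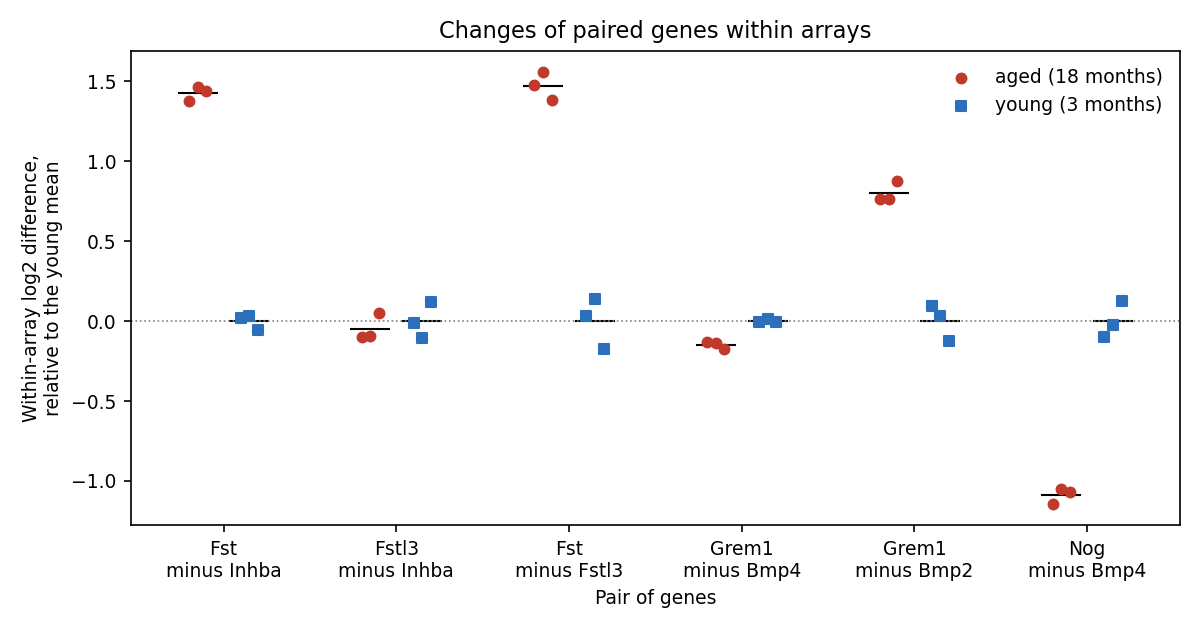
Within-array log2 difference between the genes of each of 6 pairs, set relative to the mean of the young arrays; aged arrays are circles on the left and young arrays squares on the right of each pair, with bars at the means. Aged arrays lie above young arrays for Fst minus Inhba, Fst minus Fstl3 and Grem1 minus Bmp2 and below them for Grem1 minus Bmp4 and Nog minus Bmp4, and the ages overlap for Fstl3 minus Inhba.

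The rest of the pathway was read through 5 lists of 77 genes, of which 67 were tested: 19 rose, 11 fell and 37 did not pass. Their median difference was 0.06 on the log2 scale. Over all genes tested 18.4% were higher and 22.1% lower, with a median difference of 0.01. Of 17 other secreted antagonists 4 rose and 13 did not pass, a share near the 18.4% of all genes that rose, with a median difference of 0.09. Nbl1, a BMP antagonist of the same cystine-knot family as gremlin, rose 1.57-fold, to 9.90 ± 0.01 in aged cells against 9.25 ± 0.07 in young cells (SD, n = 3 each). Smoc2, a matrix protein of the BM-40 family, rose by 1.01 with both means within the negative control range. Bmper, a BMP-binding regulator with chordin-like repeats, rose by 0.42, from 7.44, within the negative control range, to 7.86. Against the minimum of 0.3 Bmper did not pass. Twsg1 (twisted gastrulation), a partner of chordin, rose by 0.11, less than the largest antigenomic shift.

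Of 13 tested ligand genes 3 rose and 10 did not pass, a share near the 18.4% of all genes that rose. Bmp4 read 9.75, 9.77 and 9.78 on aged arrays, against 8.89, 8.82 and 8.74 on young arrays, a 1.93-fold rise (limma, adjusted p = 3.89e-07). Its ages were clearly apart, and it is among the ligands that gremlin, noggin and the chordins bind. Bmp1, which despite its name is a protease that cleaves procollagen and chordin, rose 1.42-fold, and Gdf5 rose by 0.16 within the negative control range. Bmp2 did not pass (difference 0.00, adjusted p = 0.968 by limma).

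Of 12 tested receptors and co-receptors 2 were higher, 3 lower and 7 did not pass, shares near the 18.4% higher and 22.1% lower of all genes tested. Acvr2a, a type II receptor for activins and some BMPs, read 7.66, 7.69 and 7.65 on aged arrays, against 8.48, 8.45 and 8.37 on young arrays. All aged values were lower, and the log2 value fell by 0.76 (limma, adjusted p = 1.63e-06). Bmpr2, the BMP type II receptor, fell by 0.29, and Bmpr1b, a BMP type I receptor, fell by 0.50 within the negative control range. The fall of Bmpr2 is close to the median shift of the negative controls, -0.26, and did not pass against the minimum of 0.3. Acvr2b and Bmpr1a did not pass, at differences of -0.02 and -0.07. Tgfbr3, the co-receptor betaglycan, which presents TGF-beta and helps inhibin oppose activin, rose to 10.69 ± 0.01 in aged cells, against 8.93 ± 0.14 in young cells (SD, n = 3 each), or 3.40-fold. Rgma, a BMP co-receptor, rose 1.26-fold.

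Among 13 SMADs and their regulators 8 fell, 2 rose and 3 did not pass, where 22.1% of all genes tested fell. Of these 13, 12 were above the negative control range at both ages, and of all 9440 such genes 36.2% fell, with a median difference of -0.04. Skil, a repressor of SMAD2 and SMAD3 that TGF-beta and activin induce, had a log2 value of 8.94 ± 0.02 in aged cells, against 9.66 ± 0.03 in young cells (SD, n = 3 each), and fell by 0.72 (limma, adjusted p = 3.49e-07). Tgif1, a SMAD co-repressor, fell by 0.42, Smurf1, a ubiquitin ligase for SMADs of the BMP branch, by 0.39, and Smad4, the shared partner, by 0.26. Against the minimum of 0.3 only Skil of these 13 passed, where 4.04% of all genes tested passed as lower. The inhibitory SMADs differed in direction: Smad6, which acts mainly on BMP signals, rose by 0.18, and Smad7 fell by 0.28. The rise of Smad6 is less than the largest antigenomic shift, 0.29, and the falls of Smad4 and Smad7 are close to the median negative control shift, -0.26. Smad9, a BMP-regulated SMAD, rose by 0.42 within the negative control range.

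Of 12 tested target genes 8 rose and 4 did not pass, with a median difference of 0.70 on the log2 scale, beside 18.4% higher and a median of 0.01 over all genes tested. Id1, Id2 and Id3 are inhibitors of helix-loop-helix transcription factors and well-known BMP targets. Id1 read 8.12, 8.28 and 8.22 on aged arrays, against 7.75, 7.55 and 7.68 on young arrays, a rise of 1.46-fold. Id2 rose by 1.57 and Id3 by 1.39 on the log2 scale, each with young means within the negative control range. The ages did not overlap in any of these Id genes. The 4 targets that did not pass were Id4, Msx1, Msx2 and Hey1, at differences of 0.13, -0.04, -0.09 and -0.06, and they too are known targets of BMP signals in some tissues. Ccn2 (connective tissue growth factor), Tgfbi and Ltbp2, which TGF-beta induces in many cell types, rose by 1.96, 1.49 and 1.09 on the log2 scale. The young mean of Ltbp2, 7.32, was within the negative control range, so the size of its true change is not settled. The list joins BMP and TGF-beta targets, and many of them answer to other signals too.

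**Figure D4:**
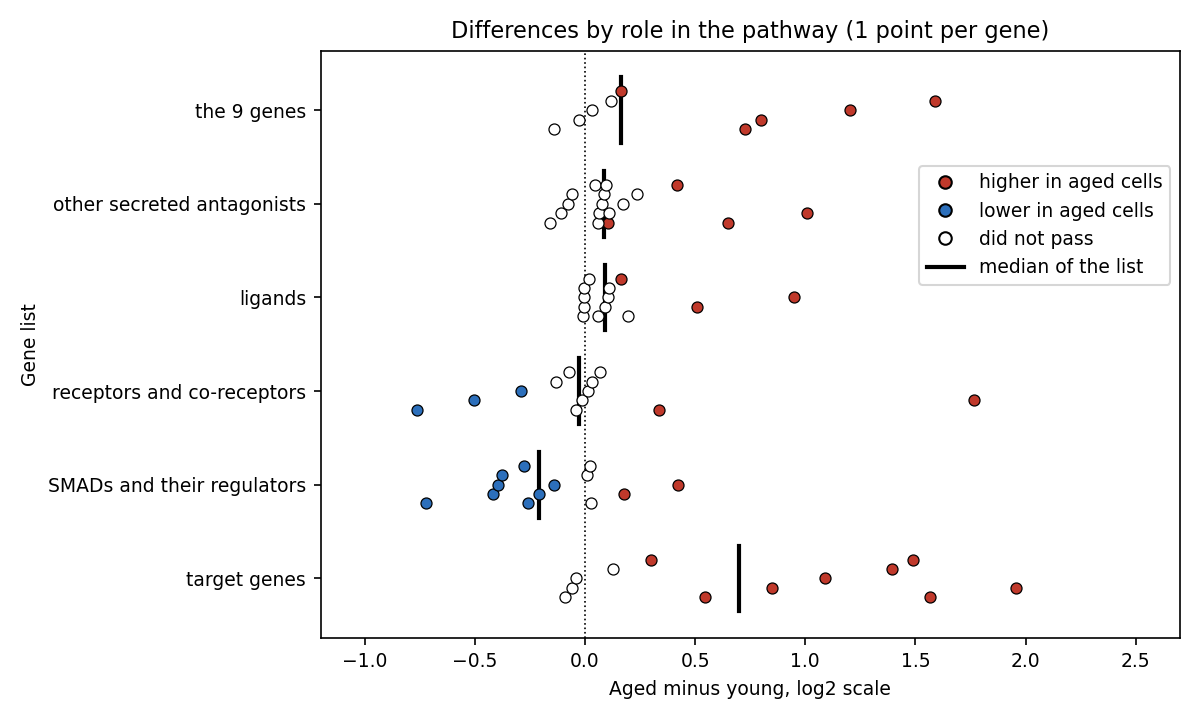
Aged minus young difference on the log2 scale for each tested gene, by role in the pathway (1 point per gene, red higher and blue lower in aged cells at an adjusted p under 0.05 by limma, white not passed), with a bar at each list's median. The medians were 0.16 for the 9 genes, 0.09 for other secreted antagonists, 0.09 for ligands, -0.03 for receptors, -0.21 for SMADs and their regulators and 0.70 for target genes.

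The genes most like Fst across arrays were ranked by Pearson's r over the 6 arrays, as a description without a test. The highest were Brinp3, Oasl2, D17H6S56E-5, Dcxr and Col12a1, with r from 0.9997 to 0.9998. As many as 929 genes had r above 0.99, since the arrays form 2 groups by age and r mostly reads that step. Of 9 tested stromal markers 5 rose, 2 fell and 2 did not pass, beside 18.4% higher and 22.1% lower of all genes tested. Cxcl12, Vcam1, Col1a1, Pdgfrb and Cd44 rose by 2.25, 1.01, 0.79, 0.20 and 0.19 on the log2 scale, Nt5e and Itgb1 fell by 0.54 and 0.10, and Thy1 and Eng had differences of -0.02 and 0.07. The rises of Pdgfrb and Cd44 are less than the largest antigenomic shift, 0.29. Nt5e, Thy1 and Eng were within the negative control range at both ages. Of 5 tested markers of smooth muscle and pericytes 2 rose, Acta2 and Tagln, 1 fell, Cnn1, and Myh11 and Cspg4 did not pass. The rises of Acta2 and Tagln, 0.20 and 0.27 on the log2 scale, are less than the largest antigenomic shift. Cnn1, Myh11 and Cspg4 were within the negative control range at both ages. The summed linear signal of these 5 markers was 9492 to 9696 in aged and 8187 to 8550 in young arrays, with Acta2 the brightest. Of 3 osteoclast markers 1 rose, Ctsk, while Acp5 and Ocstamp did not pass and were within the negative control range. The sums of these 3 were 1265 to 1295 in aged and 725 to 779 in young arrays, with Ctsk the brightest. Of 4 tested endothelium markers 1 rose, Kdr, and 2 fell, Tek and Vwf, all 4 within the negative control range. All 4 tested skeletal muscle markers did not pass and were within the negative control range. The osteoclast marker Calcr, the endothelium markers Pecam1 and Emcn and the pericyte marker Rgs5 fell below the filter on low values. The stromal marker Pdgfra had no probe set of its own. The part of these cell types in the results was not tested.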

How the data were processed

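Expression was measured on 6 Affymetrix arrays, 3 per age, grouped by the sample titles. The values are log2 expression values per probe set and array, as deposited by the authors. The submitters' processing notes name MAS5 without a version; background, scaling and summarisation are not given in the sources used here. No detection calls were used, and the number of arrays limits the precision.

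Symbols were updated through RefSeq (GRCm38.p6): 31258 probe sets named 1 gene and 1492 named several, while 33206 transcript clusters stayed unnamed. The probe set of highest mean stood for a gene, and genes averaging under 5.40 (the median transcript cluster) were left out. Ages were compared with limma 3.58.1 in R 4.3.3 (eBayes with an intensity trend, Benjamini-Hochberg over 20187 genes, threshold 0.05). On simulated arrays of 20187 genes the test found 42 of 50 genes with a simulated log2 difference of 0.5 and 21 of 50 with 0.25. Only 200 genes were changed there, whereas 40.6% of the genes tested passed in the data. The adjustment was thus stricter in the simulation, and these counts do not give the power in the data.

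The members, the gene lists and the rule for named genes (all members; per list up to 4 passing genes of smallest p in each direction, plus fixed ligands, receptors, inhibitory SMADs and Id genes; the 5 genes most like the member of largest difference) were chosen with earlier results of these data known. Dlx5, Pmepa1 and further listed genes are counted but not described. Alternatives are given in the closing section.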

Additional observations from a re-analysis of the deposited data

How the results depend on the processing

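The rises of Fst, Fstl1, Grem1 and Chrdl1 kept their direction and passed under each alternative run: other scalings, filters, probe set rules and spread models, a minimum difference of 0.3, the replicate block and each array left out. Over these the differences ran from 1.55 to 1.61 for Fst, 1.18 to 1.25 for Fstl1, 0.76 to 0.83 for Grem1 and 0.66 to 0.77 for Chrdl1. Tested against 0.3, 1169 genes were higher and 816 lower, 12 and 3 in the pathway lists, and Inhba, at 0.16, did not pass. Nog counted as 1 member lower after quantile normalization (-0.19) and without the intensity trend (-0.14, adjusted p = 0.0458 by limma). Chrd was -0.016 after quantile normalization. The cause of these changes was not tested. With 1 array left out, Fstl3 ran from 0.070 to 0.163 (past the test only without young replicate 3), Chrd from -0.0081 to 0.067, Bambi from -0.073 to 0.026, and the change of Fstl3 minus Inhba from -0.0997 to 0.014. Bambi has no value with the lower 70% of probe sets left out.

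The labels do not say whether replicate numbers pair the arrays. Deviations of same-numbered arrays from their group means correlated at -0.05, 0.07 and 0.02, beside -0.08 to 0.04 for arrays of different numbers. With 3 arrays per age these values cannot settle whether same-numbered arrays shared a batch. With the replicate block 3524 genes were higher and 4204 lower, against 3724 and 4471 without it, and 5 members were higher in both fits. Of the members, 5 lie within the negative control range at both ages, which limits what their differences show.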
